A study of Mus musculus with 4 samples.

Results

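Circular RNAs of 5 genes that encode regulators of transcription and chromatin were examined in differentiated C2C12 cells: Bnc2, Lcor, Maml3, Arid1a and Eya3. A circular RNA (circRNA) was counted as a member when it lay inside the mm9 window of its gene and on that gene's strand. The windows were those of each gene locus, on chromosome 4 for Bnc2, Arid1a and Eya3, on chromosome 19 for Lcor and on chromosome 3 for Maml3. They held 41 circles, 18 exonic and 23 intronic, of 69136 circles in all (4074 exonic and 65062 intronic). Lcor gave 19 of them, Arid1a 9, Eya3 9, Bnc2 3 and Maml3 1. Across these windows 0 circles lay on the opposite strand and 0 crossed a window's edge. The genes were chosen by the reads of their circles in these 4 libraries and by what their proteins do, so those reads are given as a description, with no test.

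C2C12 cells are mouse myoblasts of a long established line; in low serum they leave the cell cycle and fuse to multinucleate myotubes. Here they had spent 3 to 4 days in medium with 2% horse serum. The study read 2 libraries of total RNA, whose treatment is labelled as control, and 2 of RPAD RNA from the same line, and the comparison asks which circles are read once linear RNA is removed. For RPAD, RNA was digested with RNase R for 30 min, the linear remainder was given poly(A) tails, and poly(A)+ RNA was then taken out. The labels name HeLa RNA in the RNase R step and C2C12 as the line of all 4 libraries; the labelled line is used here. Whether the 2 libraries of a group were separate cultures is not labelled, so their spread may be technical. Depth was 35981 to 38850 back-splice reads in total RNA and 150478 to 191246 in RPAD. Circles of the titin locus, a gene of striated muscle, took 4.38% to 8.08% of these reads in the 4 libraries; the files give no linear expression, so no other marker of the cell type was read.

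A circRNA forms when the splicing machinery joins the 5′ splice site at the end of an exon (the donor) to the 3′ splice site at the start of the same or an earlier exon (the acceptor), which leaves a closed ring without ends. RNase R degrades RNA from a free 3′ end, and closed rings resist it. A back-splice read fixes both ends of a circle. The exons between the ends, and so the spliced length, are those of the listed transcript model and were not checked here. The host genes work at different levels of gene control. Bnc2 encodes basonuclin 2, a zinc finger protein of the nucleus. Lcor encodes a corepressor that binds ligand-bound nuclear receptors and recruits histone deacetylases. Maml3 encodes a Mastermind-like coactivator of the Notch transcription complex. Arid1a encodes a DNA-binding subunit of the BAF (SWI/SNF) chromatin remodelling complex. Eya3 encodes a phosphatase and coactivator of sine oculis-type homeodomain proteins, with which it acts on genes of skeletal muscle development.

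Most reads of each host lay on 1 or a few exonic circles. Over the 4 libraries the leading circle took 99.9% of exonic reads of Bnc2, 100% of Maml3, 92.4% of Eya3, 69.8% of Arid1a and 66.8% of Lcor. These shares pool raw reads, so RPAD 2 weighs most in all but Maml3. By library they ran from 40.2% to 100% in Lcor and from 0% to 100% in Arid1a. In Eya3 they ran from 64.6% to 97.5% where it had exonic reads. Together the 18 exonic circles held 656 reads in total RNA 1 and 691 in total RNA 2, against 2401 in RPAD 1 and 7135 in RPAD 2. This was 4.05%, 4.49%, 4.29% and 7.77% of all exonic back-splice reads of those libraries. RPAD 2 was the highest of the 4, and the other three lay close together. Of the 18, total RNA listed 10 and 13, while RPAD 1 listed 3 and RPAD 2 listed 8, in the direction of all exonic circles (2067 and 1821 in total RNA, 499 and 777 in RPAD). In all, 10 member circles were read in total RNA alone, 2 in RPAD alone and 6 in both, and 2 were read in all 4 libraries. Of those in total RNA alone, the Maml3 circle had 68 reads and no other had more than 12. The same split was not counted over all exonic circles, so it is a description.

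**Figure D1:**
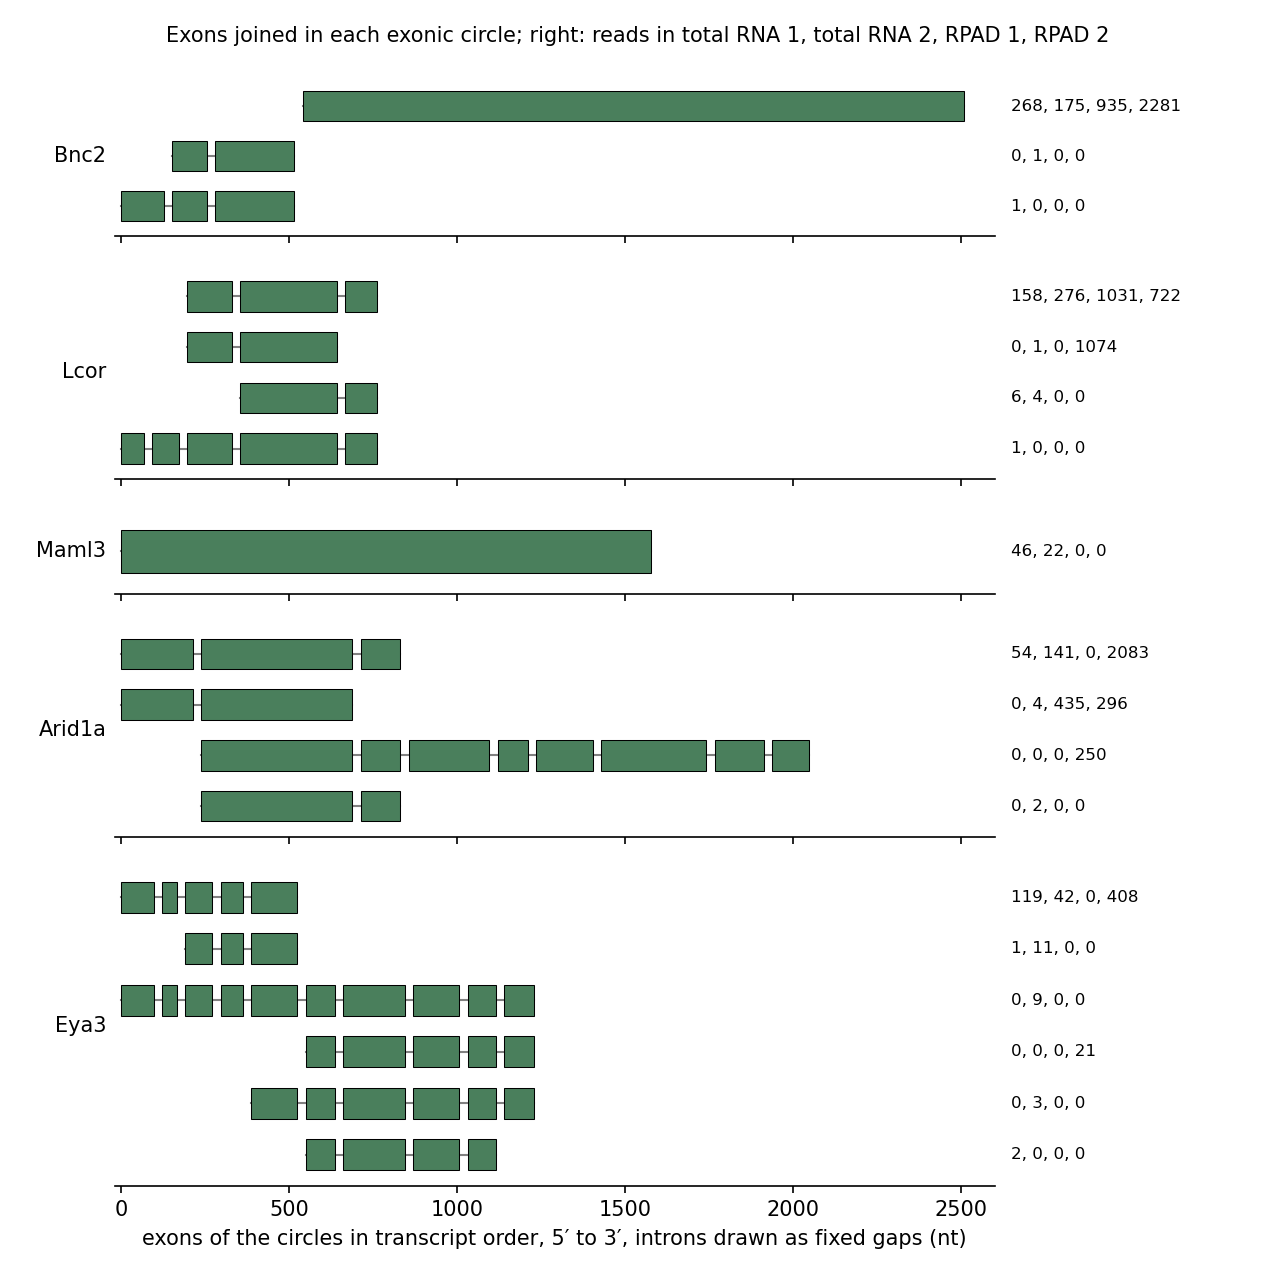
Exons of each of the 18 exonic circles in the listed transcript model, one circle per line, by host gene. The horizontal axis gives nt along the exons in transcript order, with each intron drawn as a gap of fixed width; the numbers at the right are reads per library, the total RNA pair first and the RPAD pair second. The leading Bnc2 circle and the Maml3 circle are single long exons. The circles of Lcor, Arid1a and Eya3 share exons and ends, as do the minor Bnc2 circles.

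The leading Bnc2 circle was a single exon of 1970 nt (chromosome 4, 83937597 to 83939566), exon 4 of its assembled transcript model. Total RNA 1 and 2 gave it 268 and 175 reads, and RPAD 1 and 2 gave it 935 and 2281. Per 100000 back-splice reads the host stood at 692 and 489 in total RNA and at 621 and 1193 in RPAD. RPAD 1 lay between the total RNA libraries and RPAD 2 above them, so the groups overlapped. This circle was the 3rd and 7th most read exonic circle of the total RNA libraries and the 8th and 6th of the RPAD libraries. The other Bnc2 circles had 1 read each, in total RNA, and joined exons of 236 and 103 nt upstream of the long exon, 1 of them with a further exon of 126 nt.

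Lcor gave a circle of exons 5 to 7 that was read in every library, and a shorter circle of exons 5 and 6 that was abundant in RPAD 2 alone. The circle of exons 5 to 7 (chromosome 19, 41620365 to 41630191; 515 nt) was covered by 158 and 276 total RNA reads and by 1031 and 722 RPAD reads. As a share of Lcor exonic reads it took 95.8% (95% interval 91.5 to 98.3) and 98.2% (95.9 to 99.4) in total RNA, 100% (99.6 to 100) in RPAD 1 and 40.2% (37.9 to 42.5) in RPAD 2. The circle of exons 5 and 6 (41620365 to 41627226; 421 nt) was covered by 0 and 1 total RNA reads, by 0 in RPAD 1 and by 1074 in RPAD 2, which is 59.8% (57.5 to 62.1) of Lcor exonic reads there. The Lcor makeup of RPAD 1 was thus closer to that of total RNA than to that of RPAD 2. The mean share of the longer circle was 70.1% ± 42.3 in RPAD against 97.0% ± 1.74 in total RNA (SD, n = 2 each), a difference of -26.9 points that became 3.01 points without RPAD 2.

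Both Lcor circles opened at the same exon. The acceptor at the start of exon 5 (41620365) was used by 95.8% (91.5 to 98.3) and 98.6% (96.4 to 99.6) of Lcor exonic reads in total RNA and by 100% in each RPAD library. The donor varied: that of exon 7 (41630191) took 100% and 99.6% of these reads in the total RNA libraries, 100% in RPAD 1 and 40.2% in RPAD 2. In the transcript models, the exon of 288 nt, exon 6, was in all 4 exonic circles of Lcor. The other 2 were minor: the circle of exons 6 and 7 (382 nt) was covered by 6 and 4 total RNA reads and by 0 from RPAD, and that of exons 3 to 7 (661 nt) had 1 read, in total RNA 1.

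Arid1a changed its leading circle between the RPAD libraries. The circle of exons 2 to 4 (chromosome 4, 133275452 to 133278966; 780 nt) was covered by 54 and 141 total RNA reads, by 0 reads of RPAD 1 and by 2083 of RPAD 2. The circle of exons 2 and 3 (133276465 to 133278966; 663 nt) was covered by 0 and 4 total RNA reads, by 435 of RPAD 1 and by 296 of RPAD 2. A circle of exons 3 to 10 (133248714 to 133276914; 1635 nt, 8 exons) was read in RPAD 2 alone, with 250 reads. In shares of Arid1a exonic reads, the circle of exons 2 to 4 took 100% (93.4 to 100) and 95.9% (91.3 to 98.5) in total RNA and 79.2% (77.6 to 80.8) in RPAD 2. In RPAD 1 the circle of exons 2 and 3 took all 435 reads, against 11.3% (10.1 to 12.5) in RPAD 2. The difference of RPAD from total RNA in the share of the leading circle, -58.3 points, came to -98.0 points with RPAD 1 alone and -18.7 points with RPAD 2 alone.

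As in Lcor, the acceptor varied less than the donor. The start of Arid1a exon 2 (133278966) was the acceptor of 100% and 98.6% of its exonic reads for the total RNA libraries, of 100% for RPAD 1 and of 90.5% for RPAD 2. The donor of exon 4 (133275452) took 100%, 97.3%, 0% and 79.2% in the same order. In the transcript models, the exon of 450 nt, exon 3, was in all 4 exonic circles of the gene. The remaining circle, of exons 3 and 4 (567 nt), had 2 reads in total RNA 2. The host as a whole stood at 152 and 409 reads per 100000 in total RNA and at 295 and 1375 in RPAD. RPAD 1 lay between the total RNA libraries, so the difference of means, 555 per 100000, was 14.9 per 100000 without RPAD 2.

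**Figure D2:**
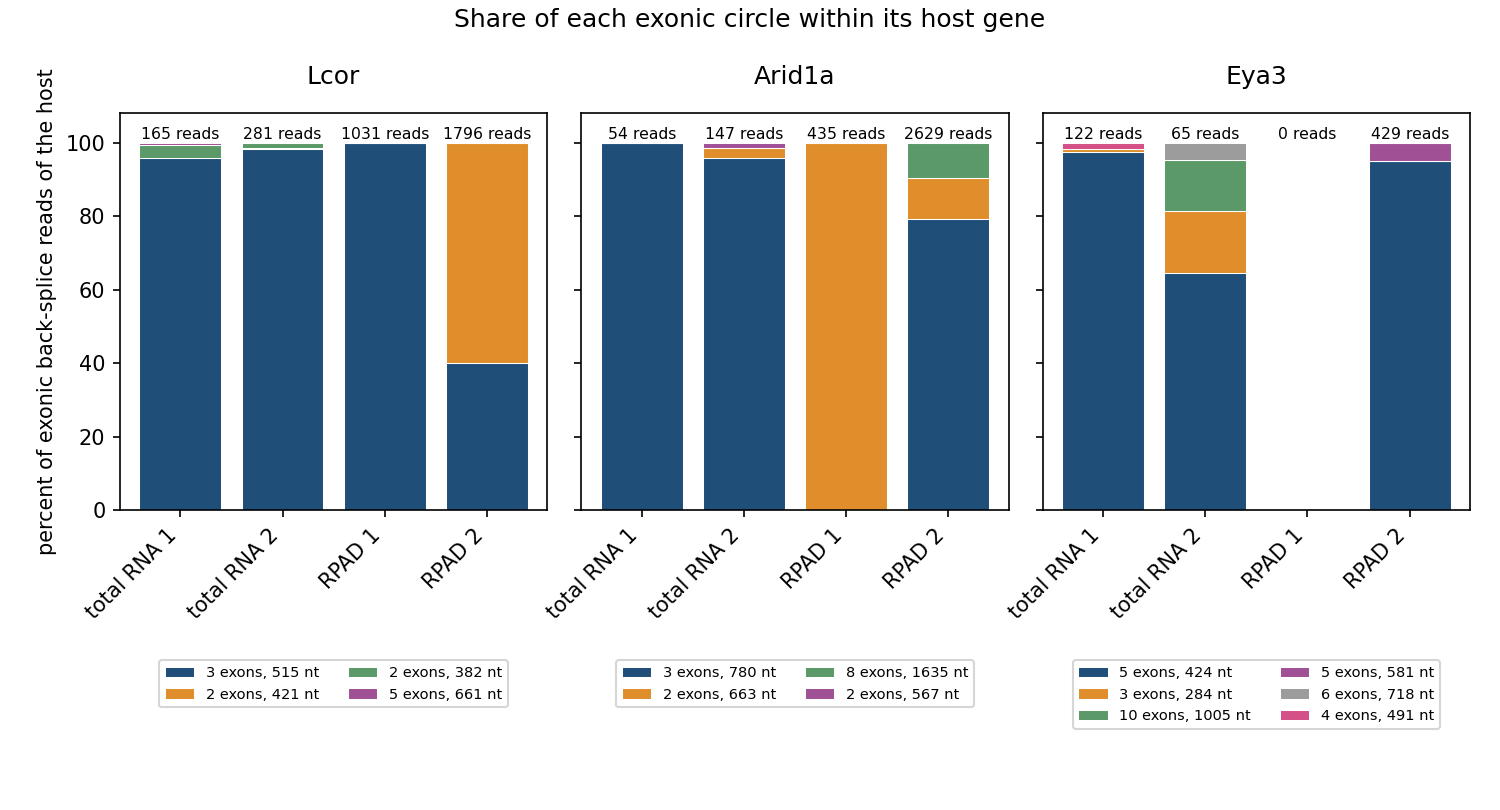
Share of each exonic circle in the exonic back-splice reads of Lcor, Arid1a and Eya3, in percent, per library, with the number of reads above each bar and each circle's exons and spliced length in the key. The leading circle of total RNA takes 40.2% of Lcor reads in RPAD 2 and 0% of Arid1a reads in RPAD 1, and Eya3 has 0 exonic reads in RPAD 1.

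Eya3 gave more exonic circles than the other hosts, 6 in all, and 0 of them were read in RPAD 1. Its leading circle joined exons 2 to 6 (chromosome 4, 132212608 to 132228947; 424 nt), with 119 and 42 total RNA reads, 0 reads of RPAD 1 and 408 of RPAD 2. The total RNA libraries differed in makeup: the leading circle took 97.5% (93.0 to 99.5) of Eya3 exonic reads in total RNA 1 and 64.6% (51.8 to 76.1) in total RNA 2, intervals that do not overlap. In total RNA 2 the circle of exons 4 to 6 (284 nt) had 11 reads, that of exons 2 to 11 (1005 nt) had 9 and that of exons 6 to 11 (718 nt) had 3. Total RNA 1 had 1, 0 and 0 reads on these, and 2 reads on a circle of exons 7 to 10 (491 nt). In RPAD 2 the leading circle took 95.1% (92.6 to 96.9).

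The remaining Eya3 reads of RPAD 2, 21 in number, lay on a circle of 5 exons and 581 nt (132245620 to 132257025) that was listed in that library alone. The files number its exons 8 to 12 in an assembled model; the same exons are 7 to 11 in the model ENSMUST00000081726. In that model those exons were also part of the circle of exons 2 to 11, which was read in total RNA 2. The donor of exon 6 (132228947) took 98.4% and 81.5% of the Eya3 exonic reads of total RNA 1 and 2 and 95.1% of those of RPAD 2. The acceptor of exon 2 (132212608) took 97.5%, 78.5% and 95.1%. In Eya3, unlike Lcor and Arid1a, neither end was the steadier one across libraries; this difference between hosts was not tested.

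Maml3 gave 1 circle, the single exon 2 of 1578 nt (chromosome 3, 51659421 to 51660998), and it was read in total RNA alone. Its reads numbered 46 and 22 in the total RNA libraries, or 118 and 61.1 per 100000, and 0 in each RPAD library. A count of 0 over the RPAD group allows up to 3 reads over both libraries, or 0.878 per 100000. Against this floor over the group, the circle was at least 104-fold lower, and at least 80.4-fold with the lower 95% limit of its 68 total RNA reads. Both bounds cover counting error alone, and not the loss of well-read circles from single RPAD libraries described below. They rest on both RPAD libraries: the first was 57.9-fold without RPAD 1 and 45.6-fold without RPAD 2. Without total RNA 1 the first bound was 69.6-fold, and without total RNA 2 it was 135-fold. The Maml3 circle was the 53rd and the 128th most read exonic circle of the total RNA libraries.

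**Figure D3:**
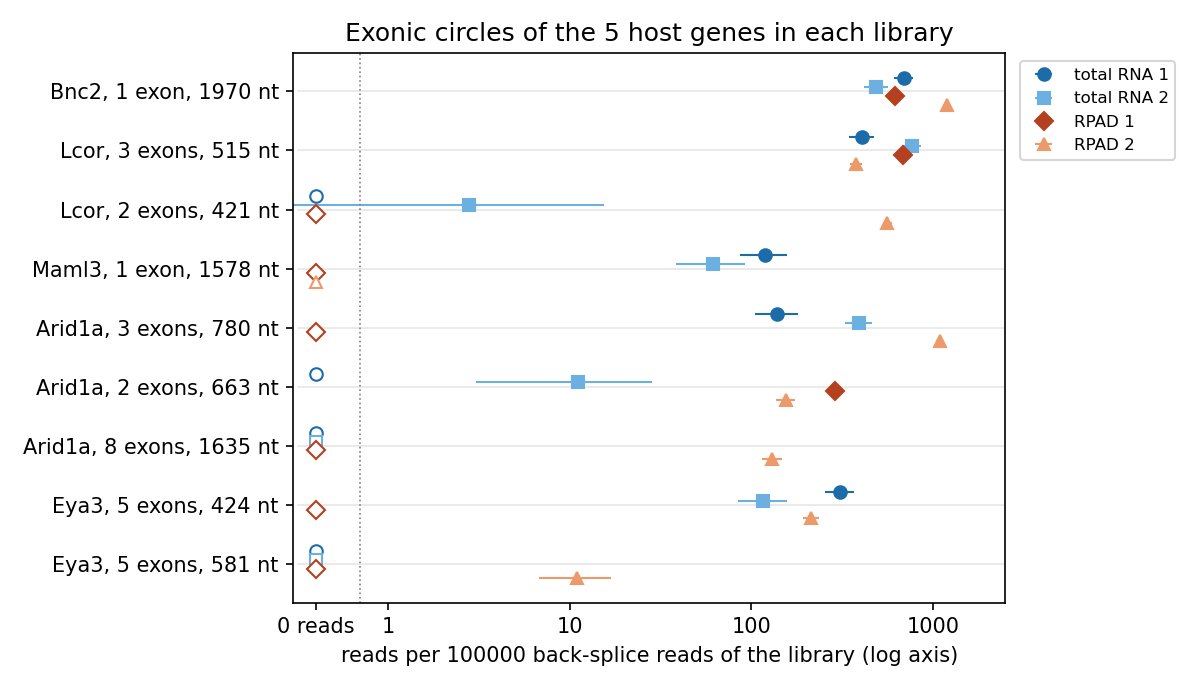
Reads per 100000 back-splice reads of the library (log axis) for the 9 exonic circles with at least 20 reads in a library. Each point is 1 library with its exact 95% interval for counting error, and open points at the left are libraries with 0 reads. The Bnc2 circle and the longer Lcor circle have reads in all 4 libraries, at 486 to 1193 and 378 to 767 per 100000. Each of the other 7 circles has 0 reads in at least 1 library.

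Circles read well in 1 RPAD library were often missing from the other, and the members shared this in part. RPAD 2 held 8 member circles with 20 or more reads, of which RPAD 1 lacked 5, or 62.5% (95% interval 24.5 to 91.5), against 73.6% (68.6 to 78.1) of 348 exonic circles in the whole series. Those 5 were the shorter Lcor circle, the Arid1a circles of exons 2 to 4 and 3 to 10, and both Eya3 circles. In the other direction, RPAD 1 held 3 such members and RPAD 2 lacked 0 of them, against 68.9% (63.0 to 74.3) of 273. Between the total RNA libraries the members gave 0 of 5 in each direction, against 27.3% (20.4 to 35.2) and 28.7% (21.6 to 36.6) of 150 exonic circles each. With so few members the intervals are wide, and they treat circles of the same host as independent. The genes were chosen with these reads known, so the member shares are a description and not a comparison with the series.

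In total RNA the hosts ranked Lcor, Bnc2, Arid1a, Eya3 and Maml3, with 607 ± 246, 591 ± 144, 280 ± 182, 249 ± 92.3 and 89.8 ± 40.5 reads per 100000 back-splice reads (SD, n = 2 each). Lcor and Bnc2 overlapped between libraries, as did Arid1a and Eya3, while both Maml3 values lay below those of every other host. In RPAD the order was Bnc2, Arid1a, Lcor, Eya3 and Maml3, with 907 ± 404, 835 ± 763, 819 ± 190, 114 ± 156 and 0. The leading 3 overlapped. Levels relative to all back-splice reads depend on what else is counted: the RPAD mean lay above the total RNA mean by 316 per 100000 for Bnc2 and 212 for Lcor, and the differences were -378 and -511 when circles with under 5 reads in a library were left out of the totals. No direction is therefore given for these hosts.

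Across all circles, RPAD against total RNA gave no call. Of 924 circles that passed the low-count filter, edgeR's quasi-likelihood test with Benjamini-Hochberg adjustment called 0, or 0.00%, with 162 at an unadjusted p under 0.05. DESeq2 called 78, or 8.44% of the 924, with its independent filtering, and 0 without it. That filtering left 387 circles with an adjusted p, so the share among those that could be called is higher. Of the 18 exonic members 7 passed the filter, through their reads in either group, and 0 of 7 were called by edgeR; DESeq2 with independent filtering called 1, the Maml3 circle. Summed over host groups (circles of linked transcripts), edgeR called 0 of 1424 (0.00%; 376 at an unadjusted p under 0.05), and 0 of the 5 tested groups of these genes. DESeq2 called 12.6% of the 1424 host groups, of which 1093 had an adjusted p, and 7.30% without independent filtering. Maml3 alone of the 5 was called in each case. The calls depended on the RPAD libraries. Without RPAD 1 edgeR called 19.9% of circles, 2 of 7 members among them (Maml3 and the Arid1a circle of exons 2 and 3). Without RPAD 2 it called 23.2% of circles and 4 of 7 members, adding the Arid1a circle of exons 2 to 4 and the leading Eya3 circle to those 2; RPAD then had 0 reads of both. For host groups the background was 37.5% and 43.5%, with 2 of 5 member groups each time (Maml3, with Arid1a and with Eya3 respectively). Without either total RNA library 0 were called. A count of member calls is not read as a result, because the genes were chosen with these reads known.

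The log2 fold changes of the leading circles other than Maml3 (RPAD over total RNA, relative to the other circles tested) had standard errors larger than their size. For Maml3, with 0 RPAD reads, a fitted value depends on the prior count, and the bound above stands in its place. They were 0.43 (SE 1.05) for Bnc2, -0.48 (SE 1.03) for the longer Lcor circle, 1.19 (SE 2.81) for the Arid1a circle of exons 2 to 4 and -1.0 (SE 2.79) for Eya3. The sign turned to -0.72 for Bnc2 without RPAD 2, to 0.26 for Lcor with no filter on low counts, and to 0.28 for Eya3 without RPAD 1 and 0.13 without total RNA 1. The largest change of sign was that of the Arid1a circle of exons 2 to 4, which was fitted at -11.14 without RPAD 2; Eya3 was fitted at -10.93 there. In both, RPAD 1 held 0 reads, so these fitted sizes depend on the prior count. The Arid1a circle of exons 2 and 3 had 5.07 (SE 2.57), and 4.10 to 11.03 with 1 library left out, highest without total RNA 2, which held its only 4 reads of that group. All tested exonic circles had a median of -1.07.

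The groups did not overlap, in reads per 100000, for 3 of the 7 tested members. The Arid1a circle of exons 2 and 3 lay higher in both RPAD libraries, as 7.14% of the 462 tested exonic circles did. With 0 and 4 total RNA reads, it needed its RPAD reads to pass the low-count filter. Its non-overlap is therefore not independent of passing. The Maml3 circle and the Lcor circle of exons 6 and 7 lay lower, as 40.0% did. Both had 0 reads in RPAD and passed the low-count filter through total RNA alone, so their non-overlap followed from passing. The Lcor circle of exons 6 and 7 was at least 15.2-fold lower against the floor of 3 reads over the RPAD group, and at least 7.30-fold with the lower 95% limit of its 10 total RNA reads. Without RPAD 1 the first of these bounds was 8.52-fold and without RPAD 2 it was 6.70-fold. Both bounds cover counting error alone, and not the loss of well-read circles from single RPAD libraries described above.

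Each of the 5 leading circles had a greater summed length of flanking introns than the median exonic circle, with the longest and with the shortest introns given. The choice of genes did not use this length, but it used reads. Circles with at least 20 reads in a library had longer flanks than all exonic circles, so the property is not independent of the choice. The summed length of the introns on both sides had a median of 56723 nt for the leading circles and 33363 nt for the 18 exonic members. It was 10327 nt for the 3838 exonic circles with an intron on each side, and 20105 nt for the 679 of them with at least 20 reads in a library. The Maml3 exon lay between introns of 246602 and 157655 nt, and 0 of the 3838 circles had a greater sum. For the leading Bnc2 circle, with 97226 nt upstream and up to 78224 nt downstream, 36 circles had a greater sum. These lengths are the longest that the transcript model of any library gives on each side. With the shortest instead, the medians were 52797 nt for the leading circles, 21333 nt for the members, 10096 nt for all and 18516 nt for those with at least 20 reads. The share of all exonic circles above the member median then was 31.5%, against 20.9% with the longest, and 116 circles exceeded the Bnc2 sum. These are descriptions, since circles of a gene share introns.

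Flanks were not uniformly long within a host. The Arid1a circle of exons 2 to 4 lay between introns of up to 33343 and 23380 nt. The circle of exons 2 and 3 shared its upstream side and had 896 nt downstream, and the circle of exons 3 to 10 lay between introns of 1839 and 1519 nt. The longer Lcor circle had 17234 nt upstream and 2609 or 26076 nt downstream, depending on the model, against 2871 nt downstream of the shorter one. Intron lengths come from the transcript model each library used, and 6 of the 9 member circles listed in 2 or more libraries had different flanks by model, against 141 of 778 exonic circles (18.1%) in all. The upstream intron of the Arid1a circle of exons 2 and 3 was 418 nt in the assembled model of RPAD 1 and 29417 and 33343 nt in the others.

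**Figure D4:**
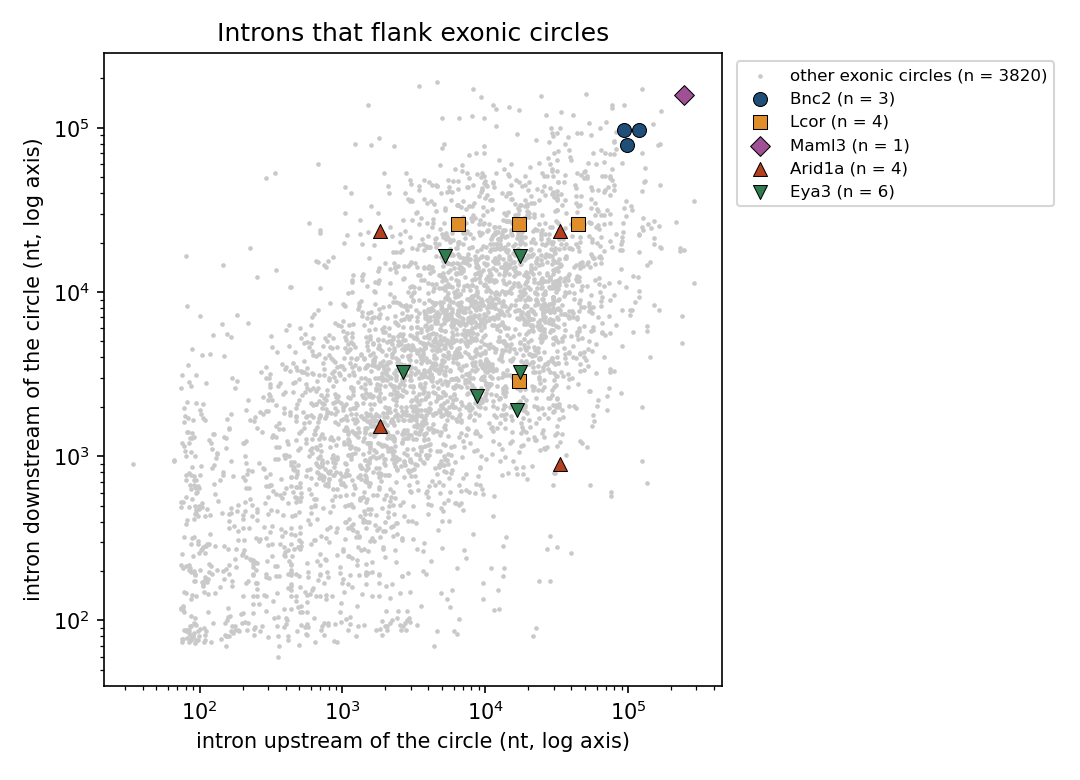
Length of the intron upstream against the intron downstream of each exonic circle (nt, both axes log), for members by host and for all other exonic circles in grey. The Maml3 circle and the 3 Bnc2 circles lie at the upper right, while the Arid1a circle of exons 3 to 10, at 1839 and 1519 nt, lies among the bulk.

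Single exons of this length were uncommon as circles. Of 963 single-exon circles, whose median length was 139 nt, 16 were longer than the Bnc2 exon and 30 longer than the Maml3 exon. Of the 54 with at least 20 reads in a library, with a median of 790 nt, 3 and 9 were longer. Among the 18 exonic members 7 began at exon 2 of their model (38.9%), against 25.1% of all exonic circles and 35.4% of those with at least 20 reads. These were the Maml3 circle, 2 Arid1a circles, 2 Eya3 circles and the minor Bnc2 circles.

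Intronic circles took few of the reads of these hosts. These join the first base of an intron to a base within it, and they made up 23 of the 41 members (56.1%), against 94.1% of all circles. They held 0.908% of the reads of Lcor, 0.427% of Arid1a and 1.12% of Eya3, and Bnc2 and Maml3 had 0 of them. Over all hosts intronic circles took 52.0% to 62.8% of back-splice reads in the 4 libraries. The genes were chosen for abundant exonic circles, so this difference is not a finding.

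No intronic member had more than 5 reads in a library. In Lcor, 12 of them began at the start of intron 2 (41558091), an intron of 44420 nt, and ended up to 136 nt into it, with 27 reads, all of RPAD 2. The 3 most read had 4 reads each, and 2 of them ended at adjacent bases, 41558191 and 41558192. A further 3 Lcor circles began at intron 7, with 1 read each in total RNA 1. In Arid1a, circles of 760 and 743 nt in the intron between exons 2 and 3 had 5 and 4 reads in RPAD 1 alone. This is the library in which the circle of exons 2 and 3 was the only exonic circle of Arid1a. In Eya3, circles of 113 and 107 nt at the start of intron 2 had 5 and 1 reads in RPAD 1, the library with 0 exonic Eya3 reads. The remaining 3 intronic circles of Arid1a had 1 or 2 reads in total RNA 1, and that of Eya3 had 1 read in total RNA 2.

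The circles whose reads were most like those of each leading circle were sought among the 4056 other exonic circles, by the mean absolute difference in log2(reads per 100000 + 1) over the 4 libraries. For Bnc2 it was an 18-exon circle of the titin locus (chromosome 2, 76685445 to 76694423), with 265, 496, 775 and 820 reads and a mean difference of 0.82. For Lcor it was a 10-exon circle of the same locus (76688627 to 76694423), with 428, 270, 1244 and 686 reads and 0.45. The pattern of Arid1a, with 0 in RPAD 1, was nearest to that of a 2-exon circle on chromosome 6 (115992889 to 116084475), with 61, 74, 0 and 447 reads and 0.83. For Eya3 it was a single-exon circle on chromosome 14 (47635952 to 47636470), with 50, 60, 0 and 426 reads and 0.45. For Maml3 it was a 5-exon circle on chromosome 5 (24853179 to 24859226), with 35, 31, 0 and 0 reads and 0.22. With 4 libraries these are descriptions of likeness in reads.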

How the data were processed

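The authors deposited 1 list of circles per library with a raw count of back-splice reads for each, per the file headers. A deposited score of 0 to 3 per junction, of unstated meaning, was used in 1 alternative alone, which kept junctions of score 0. The leading Bnc2 circle had score 1 in RPAD 1 and score 0 in the other libraries, so that alternative leaves out its RPAD 1 reads. Libraries were depleted of ribosomal RNA and had 17 cycles of PCR, per the labels' protocols. The submitters' processing notes name cutadapt, TopHat, Cufflinks 2.2.1 and mm9; the junction caller was not given in the sources used here. The protocols name no molecular tags for PCR copies, so every interval and floor covers counting error alone.

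Positions are mm9, counted from 1. Of 8067 transcript identifiers 0 matched the symbol tables, so other genes of these pathways were not analysed here. No circle sequence is given, because no mm9 genome was used here. Circles absent from a file were given 0 reads. Transcript identifiers were joined to 6532 host groups wherever they had a circle or intron in common. Shares carry exact Clopper-Pearson 95% intervals. With 2 libraries against 2 an exact permutation test cannot give a p below 0.333, so shares and levels are described.

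Reads were compared with edgeR 4.0.16 (R 4.3.3): quasi-likelihood F test, TMM scaling, filterByExpr (minimum count 5, minimum total 10), no covariate, and a Benjamini-Hochberg threshold of 0.05. The SE of a log2 fold change is its size over the root of F. DESeq2 1.42.0 was an alternative. Python 3.11.15, pandas 2.3.3 and scipy 1.17.1 were used.

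Members and lists were chosen with earlier results of these data known. The rule for named items took exonic circles that reached 20 reads in a library or were listed in at least 3 libraries (at most 6 per host) and the 2 intronic circles with the most reads per host. It named 9 exonic and 6 intronic circles; the others were named after their values were seen.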

Additional observations from a re-analysis of the deposited data

How the results depend on the processing

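Leaving out 1 library gave 0 to 214 calls of circles and 0 to 620 of host groups with edgeR, highest without RPAD 2 (184 and 534 without RPAD 1); the spread of the lone library is then taken from the other group. DESeq2 called 78 circles and 179 host groups with independent filtering, and 0 and 104 without it, a setting chosen after seeing the data. With the replicate block, 0 circles and 2 host groups were called, and with no low-count filter also 0 and 2. With the block the log2 fold change of the Arid1a circle of exons 2 to 4 was -3.80 and that of the leading Eya3 circle -4.71. The correlation of deviations between libraries of the same number was 0.0524; from 2 pairs, shared cultures cannot be told from separate ones.

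With 1 library left out, the difference of RPAD from total RNA in the leading circle's share was -56.8 to 3.01 points for Lcor and -2.44 to 30.5 points for Eya3, the latter from 1 RPAD library where RPAD 1 has no exonic read. With intronic circles counted, the Eya3 difference was -33.0 points, since RPAD 1 then has a share of 0. Per 100000 exonic reads, the host differences were 674 (Bnc2), 476 (Lcor), -214 (Maml3), 1175 (Arid1a) and -355 (Eya3), larger because the total is smaller. With circles under 5 reads left out they were -378 (Bnc2), -511 (Lcor), -226 (Maml3), 361 (Arid1a) and -461 (Eya3). With junctions of score 0 alone they were 39.3 (Bnc2), 361 (Lcor), -118 (Maml3), 796 (Arid1a) and -173 (Eya3). The Maml3 difference was -118 to -61.1 with 1 library left out. The share of exonic circles with longer summed flanking introns than the member median was 20.9%, 32.8% among circles with at least 20 reads, and 31.5% with the shortest introns given, chosen after seeing the data. Depth limits total RNA most, where 3 reads are 7.72 and 8.34 per 100000.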
